A study of Mus musculus with 24 samples.

Results

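The genes described here encode proteins of the complement and coagulation systems that the liver makes and releases into blood. They were chosen as the probe sets whose gene symbol in the platform annotation is 1 of 39 listed complement and coagulation genes. Of these, 35 were measured, all above the limit set for low values, among 13384 genes tested. C3, Cfd and Cpb2 had no probe set under those symbols in the annotation used and were not analysed here. C4b stood only on a probe set shared with C4a and was left unnamed, and Protz is listed under its current symbol, Proz.

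Liver RNA from 24 female mice of the NMR-1 strain was hybridised to mouse genome arrays of Affymetrix, each mouse on its own array. The mice were 8 weeks old at the start and ate their diet for 2 weeks. There were 6 mice per diet, 3 in each of 2 batches of RNA processing, and all values below are log2 expression values. Pellet mice stayed on the standard mouse pellets of their rearing. Chimpanzee mice ate fruit, vegetables and yogurt as fed to captive chimpanzees, cafeteria mice ate cooked dishes from an institute canteen, and fast food mice ate purchased fast food. The cafeteria and fast food groups together form the human diets, with 12 mice. No group carried a transgene or drug, and each group is limited to 1 sex and 1 strain.

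Complement is a chain of plasma proteases that tags and punctures microbes. It is started by antibody, by sugar-binding lectins or on microbial surfaces, and it ends in a pore called the membrane attack complex. Coagulation is a second protease chain, which ends when thrombin turns fibrinogen into fibrin, and hepatocytes secrete most proteins of both systems.

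The hepatocyte identity of the samples was seen in all diets, where the summed level of 12 hepatocyte markers lay between 15.25 and 15.67. Of 13 Kupffer cell and macrophage markers, 5 were lower on the chimpanzee diet than on pellets, where 7.43% of all genes were, and the summed level ran from 9.001 to 10.41 on the chimpanzee diet and from 10.11 to 10.99 on pellets. The 90th percentile of an array's values was 6.51 ± 0.07 (SD, n = 12) in batch 1 and 6.05 ± 0.20 in batch 2, and 28 of the 35 members were lower in batch 2, by a median of 0.22. Beta-actin signal at the 3′ end minus the 5′ end, a measure of RNA integrity, was 1.08 ± 0.15 (SD, n = 6) on the chimpanzee diet and 0.75 ± 0.14 on pellets. In whole liver, fewer cells of a type and less RNA per cell cannot be told apart.

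C8b, Mbl2, F10, Proz, F11 and C6 were lower on the chimpanzee diet than on pellets and F5 was higher, while C8b and F11 were also lower on the human diets than on pellets. Among the 4 diets, 3 of 35 members passed limma's moderated F test at an adjusted p of 0.05, which is 8.57%, against 9.0% of all genes. They were Mbl2, C8b and F11. Between the human diets and the chimpanzee diet, 0 members passed, against 1.49% of all genes. A procedure modelled on the study's methods was also run, with a laxer threshold, an unadjusted p under 0.01. It leaves out probe sets whose diet difference depends on batch, and dropped C8a and C8b there. It called 2 of the 33 members left (6.06%), Mbl2 and Cd59a, against 6.43% of all genes. Between the human diets and pellets, 2 members (5.71%) passed, both lower on the human diets, against 4.98% of all genes in either direction and 2.82% lower, and these were C8b and F11.

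Between the chimpanzee diet and pellets, 7 members (20%) passed, against 10.4% of all genes. The 6 that were lower are 17.1% of members against 7.43% of all genes, and F5, which was higher, is 2.86% against 2.93%. Most genes called in this comparison were lower, with 28.3% of them higher. The share of all genes depended on the low-value limit. With that limit set 1 log2 higher, 7826 genes were left. The same 7 members (20%) passed, against 17.5% of those genes. For the human diets against pellets this stricter filter gave 2 members (5.71%), against 8.94% of genes. For the chimpanzee diet minus pellets the median difference over the members was −0.17, against −0.00438 over all genes, and 30 of 35 had a negative difference. The members' median was −0.12 after cyclic loess scaling and −0.10 after quantile scaling of the arrays, against 0.02 over all genes in each. With the stricter filter it was −0.17, against −0.05 over all genes. For the human diets minus pellets the median was −0.11, against −0.00574 over all genes, with 29 of 35 negative. These comparisons share the pellet mice, so their signs are not independent. For the human diets minus the chimpanzee diet the members' median was 0.05, but it was −0.04 after cyclic loess scaling and −0.02 after quantile scaling of the arrays.

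The 95% intervals bound the size of the differences, counted here over all 35 members, called ones included. For the human diets minus the chimpanzee diet, the interval lay inside ± 0.5 log2, a 1.41-fold change, for 28 of 35 members and inside ± 1 log2 for all 35. For the human diets minus pellets these counts were 31 and 35, and for the chimpanzee diet minus pellets they were 22 and 33.

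**Figure D1:**
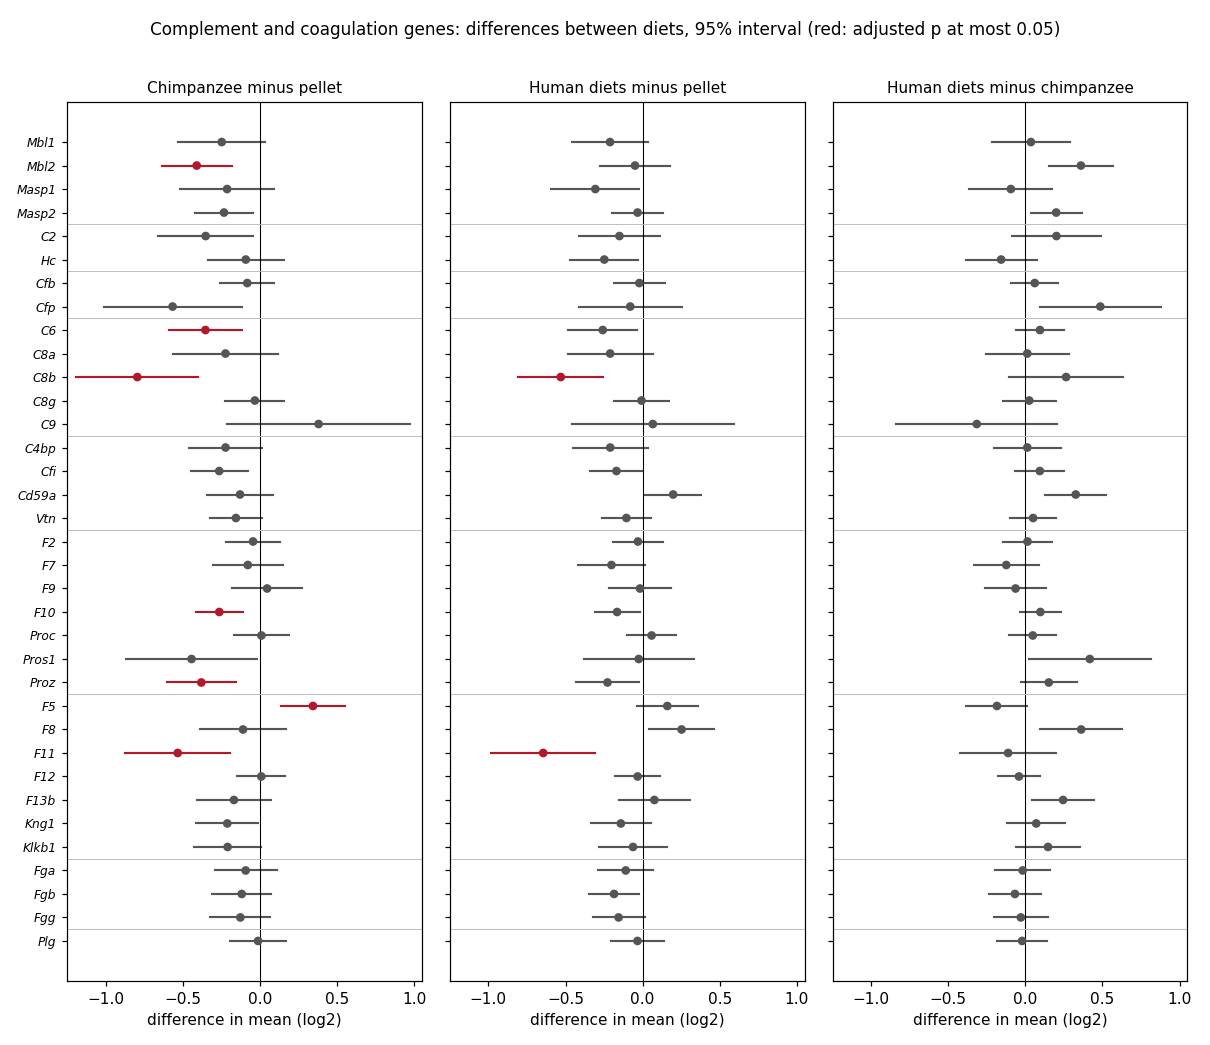
Differences in mean log2 expression for the 35 measured members between the chimpanzee diet and pellets, the human diets and pellets, and the human diets and the chimpanzee diet. Points are differences, lines are 95% intervals, grey rules separate roles, and red marks an adjusted p of at most 0.05; 7, 2 and 0 members are red.

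In the lectin pathway, Mbl2, a mannose-binding lectin that recognises microbial sugars, was uniform on the chimpanzee diet. Its values ran from 10.62 to 10.71 (median 10.68) on the chimpanzee diet and from 10.89 to 11.38 (median 11.07) on pellets. They ran from 10.91 to 11.32 (median 11.12) on the cafeteria diet and from 10.62 to 11.32 (median 11.01) on the fast food diet. The chimpanzee mice overlapped neither the pellet nor the cafeteria mice, whereas fast food batch 1 replicate 2 and batch 2 replicate 2 lay just below the lowest chimpanzee mouse. The SD was 0.03 on the chimpanzee diet and 0.17 on pellets.

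Mbl2 was 1.33-fold lower on the chimpanzee diet than on pellets (log2 difference −0.41, SE 0.11, adjusted p = 0.0164), with −0.38 in batch 1 and −0.44 in batch 2, and the call was lost without pellet batch 2 replicate 3 (adjusted p = 0.0519) and with the beta-actin measure in the fit (−0.34, adjusted p = 0.442). The human diets lay 0.36 above the chimpanzee diet (SE 0.10), the member of smallest p there, and did not pass (adjusted p = 0.0759). In that comparison Mbl2 passed after cyclic loess (adjusted p = 0.0312) and after quantile scaling (0.0296). Mbl1, the second mannose-binding lectin, and the lectin-bound proteases Masp1 and Masp2 did not pass, with differences between the chimpanzee diet and pellets from −0.25 to −0.21. Another probe set of Masp1, of lower mean signal, read −0.54 (adjusted p = 0.0397).

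Of the early components, C2, a protease of the classical and lectin convertases, differed by −0.35 between the chimpanzee diet and pellets (adjusted p = 0.158) and Hc, complement component 5, by −0.09. Cfb, the alternative pathway protease, differed by at most 0.08 in size in the comparisons of the chimpanzee and human diets with pellets. Cfp, or properdin, which stabilises the alternative convertase and is made largely by myeloid cells, differed by −0.57 (SE 0.22, adjusted p = 0.107). In the same comparison 5 of 13 Kupffer cell and macrophage markers were lower, with Cd68 at −0.68 and Clec4f at −0.78, and their part in the Cfp value was not tested.

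The membrane attack complex held the member with the largest difference from pellets. C8b encodes the beta chain of component 8, which is built from the products of C8a, C8b and C8g. C8b ran from 8.18 to 8.78 (median 8.69) on pellets and from 7.001 to 8.65 (median 7.84) on the chimpanzee diet. It ran from 7.78 to 8.48 (median 8.21) on the cafeteria diet and from 7.49 to 8.32 (median 7.95) on the fast food diet. All groups overlapped with pellets, and the lowest values of all were chimpanzee batch 2 replicates 1 and 3.

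C8b was 1.73-fold lower on the chimpanzee diet than on pellets (log2 difference −0.79, SE 0.19, adjusted p = 0.00822). The difference was −0.33 in batch 1 and −1.26 in batch 2, so its size rests mostly on batch 2. The call held in all 24 fits that left out 1 mouse and was lost with the beta-actin measure in the fit (−0.84, SE 0.29, adjusted p = 0.176). On the human diets C8b was 1.44-fold lower than on pellets (−0.53, SE 0.13, adjusted p = 0.0205), with −0.47 in batch 1 and −0.59 in batch 2. This call was lost without pellet batch 1 replicate 1, batch 1 replicate 3, batch 2 replicate 1 or batch 2 replicate 3, with adjusted p up to 0.0694, and when the chimpanzee mice also entered the fit (adjusted p = 0.0629).

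The partner chains did not pass. C8a differed by −0.22 between the chimpanzee diet and pellets (adjusted p = 0.488) and C8g, which encodes the lipocalin-like gamma chain, by −0.03 (adjusted p = 0.895). The difference C8b minus C8a within an array, in which a shift common to both genes drops out, ran from −1.08 to −0.73 on pellets and from −1.83 to −1.15 on the chimpanzee diet, without overlap. It ran from −1.59 to −1.18 on the fast food diet, again without overlap with pellets, and from −1.31 to −1.06 on the cafeteria diet. The mean change in this difference from pellets to the chimpanzee diet was −0.47 in batch 1 and −0.67 in batch 2. These pairs were chosen after the values were seen. Permutation tests of the pairs were run at first and left out for that reason, so their values stand as a description.

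C6, which joins the complex before C8, ran from 5.37 to 6.25 on pellets (median 5.76) and from 5.19 to 5.67 on the chimpanzee diet (median 5.49). Both groups overlapped, and pellet batch 2 replicate 3 was highest. The difference was −0.35 (SE 0.11, adjusted p = 0.0472), and this call was lost after either rescaling and with the beta-actin measure in the fit (−0.35, adjusted p = 0.455). It held in 8 of 24 fits that left out 1 mouse, and was lost without chimpanzee batch 1 replicate 1 or 3, chimpanzee batch 2 replicate 1 or 3, pellet batch 1 replicate 1 or 3, pellet batch 2 replicate 3 or any of 9 human diet mice, with adjusted p up to 0.133. C9, the pore-forming component and an acute phase protein, had the largest SD of any member within diet and batch (0.53), with a difference of 0.38 (SE 0.29) that was 0.99 in batch 1 and −0.23 in batch 2 and did not pass.

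C8b and C8a are neighbours in the genome, as are F11 and Klkb1, and in each pair the first gene passed and the second did not. For these and for Mbl2, the 250 bases before the RefSeq transcription start in GRCm38.p6 are shown along the direction of transcription, so that each called gene can be read beside its neighbour, with Mbl2 as the called gene of smallest spread on the chimpanzee diet. C8b lies at chr4:104766067-104766316 on the plus strand and C8a at chr4:104876399-104876648 on the minus strand. F11 lies at chr8:45262032-45262281 and Klkb1 at chr8:45294836-45295085, both on the minus strand, and Mbl2 at chr19:30232678-30232927 on the plus strand. Capitals mark matches, on either strand, to letters bound by liver transcription factors: GTTAAT for HNF1, AGGTCA for nuclear receptors, TTGCNNAA for C/EBP, TGTTTNC for FOXA and TTANGTAA for D-box factors, where N is any base. A single base of the C8b window falls in both an AGGTCA and a TGTTTNC match.
C8b: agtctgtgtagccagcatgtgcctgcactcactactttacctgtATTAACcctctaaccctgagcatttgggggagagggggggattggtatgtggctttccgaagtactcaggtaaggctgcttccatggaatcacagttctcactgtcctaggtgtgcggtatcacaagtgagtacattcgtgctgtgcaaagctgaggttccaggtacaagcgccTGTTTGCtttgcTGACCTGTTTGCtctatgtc
C8a: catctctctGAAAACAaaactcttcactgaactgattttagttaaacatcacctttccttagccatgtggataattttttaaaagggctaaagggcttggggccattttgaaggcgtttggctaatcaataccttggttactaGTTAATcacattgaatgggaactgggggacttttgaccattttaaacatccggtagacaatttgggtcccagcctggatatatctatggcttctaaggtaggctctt
F11: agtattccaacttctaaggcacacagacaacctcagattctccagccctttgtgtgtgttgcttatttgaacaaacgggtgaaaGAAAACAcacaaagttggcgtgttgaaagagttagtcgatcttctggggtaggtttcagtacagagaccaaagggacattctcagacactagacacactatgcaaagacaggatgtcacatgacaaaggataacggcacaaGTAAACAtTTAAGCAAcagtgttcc
Klkb1: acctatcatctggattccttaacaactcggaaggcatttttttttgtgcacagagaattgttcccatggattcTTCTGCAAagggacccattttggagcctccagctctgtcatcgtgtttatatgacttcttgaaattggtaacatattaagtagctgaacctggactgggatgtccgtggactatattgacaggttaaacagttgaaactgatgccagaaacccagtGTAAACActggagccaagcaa
Mbl2: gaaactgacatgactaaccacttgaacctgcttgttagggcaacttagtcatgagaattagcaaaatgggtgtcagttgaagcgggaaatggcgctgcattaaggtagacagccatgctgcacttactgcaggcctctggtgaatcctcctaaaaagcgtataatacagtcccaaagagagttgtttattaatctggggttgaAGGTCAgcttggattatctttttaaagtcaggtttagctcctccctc

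Among 27025 promoters, 6.52% held GTTAAT, 13.8% AGGTCA, 9.55% TTGCNNAA, 17.9% TGTTTNC and 2.11% TTANGTAA. Among the 28 measured members with a promoter in the table, GTTAAT was in 10, AGGTCA in 8, TTGCNNAA in 6, TGTTTNC in 10 and TTANGTAA in 1. C8b held 4 matches, C8a 2, F11 3, Klkb1 2 and Mbl2 1. A match describes letters only, and binding was not measured.

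Of the complement regulators, Cd59a encodes a membrane-anchored inhibitor of the terminal pore. It ran from 7.58 to 8.48 (median 8.32) on the cafeteria diet, from 7.87 to 8.42 (median 8.26) on the fast food diet, from 7.47 to 8.21 (median 7.97) on the chimpanzee diet and from 7.74 to 8.28 (median 8.04) on pellets, and all groups overlapped. The human diets lay 0.33 above the chimpanzee diet (SE 0.09), with 0.27 in batch 1 and 0.38 in batch 2, and this did not pass (adjusted p = 0.087). It passed in 3 of 14 alternatives fitted with limma and in 1 of 18 fits that left out 1 mouse. A second Cd59a probe set, of lower mean signal, read 0.49 in this comparison. Between the chimpanzee diet and pellets the second read −0.33 (adjusted p = 0.106) and the first −0.13. Cfi, a protease that inactivates C3b and C4b, missed the threshold between the chimpanzee diet and pellets (−0.26, adjusted p = 0.0602). In that comparison Cfi passed after cyclic loess, after quantile scaling and by the procedure modelled on the study's methods. It did not pass with the 90th percentile or the beta-actin measure in the fit. C4bp and Vtn, which restrain the convertases and the terminal complex, differed by −0.22 and −0.16 there and did not pass, though Vtn passed after quantile scaling.

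Of the 7 vitamin K-dependent factors, F10 and Proz were lower on the chimpanzee diet than on pellets. F10, the protease that with F5 activates prothrombin, ran from 10.35 to 10.70 on pellets (median 10.48) and from 10.04 to 10.36 on the chimpanzee diet (median 10.24). Only chimpanzee batch 1 replicate 3 lay above the lowest pellet mouse. The difference was −0.26 (SE 0.07, adjusted p = 0.0225), with −0.22 in batch 1 and −0.30 in batch 2, and other F10 probe sets read −0.26 and −0.15 without passing. The call was lost without chimpanzee batch 2 replicate 2 or pellet batch 2 replicate 3, with adjusted p up to 0.0718, and with the beta-actin measure in the fit, where the difference was −0.11 (adjusted p = 0.825).

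Proz, the cofactor of an inhibitor of activated F10, ran from 8.09 to 8.72 on pellets (median 8.39) and from 7.69 to 8.38 on the chimpanzee diet (median 8.00). The 3 chimpanzee mice of batch 2 lay at 7.69 to 7.77, below all pellet mice, and those of batch 1 overlapped pellets. The difference was −0.38 (SE 0.11, adjusted p = 0.0239), and it was −0.20 in batch 1 and −0.56 in batch 2. The call was lost without chimpanzee batch 2 replicate 1 or 2, or pellet batch 1 replicate 1 or batch 2 replicate 3, with adjusted p up to 0.076. With the beta-actin measure in the fit, which differed between these diets, the Proz difference was −0.08 and did not pass (adjusted p = 0.94). A second Proz probe set read −0.16 and did not pass (adjusted p = 0.521). F7, F10 and Proz lie next to each other in the genome, and F7 differed by −0.08.

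F2 (prothrombin), F9 and Proc (protein C) differed by at most 0.05 in size between the chimpanzee diet and pellets. Pros1, the protein C cofactor, differed by −0.44 (SE 0.21, adjusted p = 0.206) and showed the largest batch difference of any member, at −1.01. The 4 measured genes of the vitamin K cycle, which supplies the carboxylation these factors need, included 2 that were lower on the chimpanzee diet, where 7.43% of all genes were: Ggcx, the carboxylase (−0.47, adjusted p = 0.0206), and Nqo1 (−0.36, adjusted p = 0.0146). Nqo1 was also lower on the human diets than on pellets (−0.26, adjusted p = 0.0419).

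F11 encodes a protease of the intrinsic branch of coagulation that F12 activates and that in turn activates F9. It ran from 8.41 to 8.98 (median 8.75) on pellets, from 7.75 to 8.64 (median 8.23) on the chimpanzee diet, from 6.88 to 8.32 (median 8.16) on the cafeteria diet and from 7.64 to 8.81 (median 8.22) on the fast food diet. All cafeteria mice lay below all pellet mice, and cafeteria batch 2 replicate 3 stood far below the rest. F11 was 1.56-fold lower on the human diets than on pellets (−0.64, SE 0.16, adjusted p = 0.0222), with −0.47 in batch 1 and −0.82 in batch 2. It was 1.45-fold lower on the chimpanzee diet (−0.53, SE 0.17, adjusted p = 0.0392), with −0.30 and −0.77. The call against the human diets was lost without pellet batch 1 replicate 1 or 3 or batch 2 replicate 1 or 3, with adjusted p up to 0.0773. The call against the chimpanzee diet held in 15 of 24 fits that left out 1 mouse and was lost without chimpanzee batch 1 replicate 1 or 3, chimpanzee batch 2 replicate 1 or 2, or any pellet mouse but batch 1 replicate 2, with adjusted p up to 0.118. With the beta-actin measure in the fit F11 passed in neither comparison, at −0.52 for the human diets (adjusted p = 0.106) and −0.21 for the chimpanzee diet (adjusted p = 0.871).

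Klkb1, which encodes prekallikrein and neighbours F11, differed by −0.06 and −0.21 in the same comparisons and did not pass. F11 minus Klkb1 within an array ran from −0.93 to −0.65 on pellets and from −2.22 to −1.27 on the cafeteria diet, without overlap. On the chimpanzee diet it ran from −1.39 to −0.80 and on the fast food diet from −1.35 to −0.62, both overlapping pellets. F12 and Kng1, the other contact factors, differed by 0.01 and −0.21 between the chimpanzee diet and pellets and did not pass. Kng1 passed there after cyclic loess and after quantile scaling, while a second Kng1 probe set read −0.05 without rescaling.

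**Figure D2:**
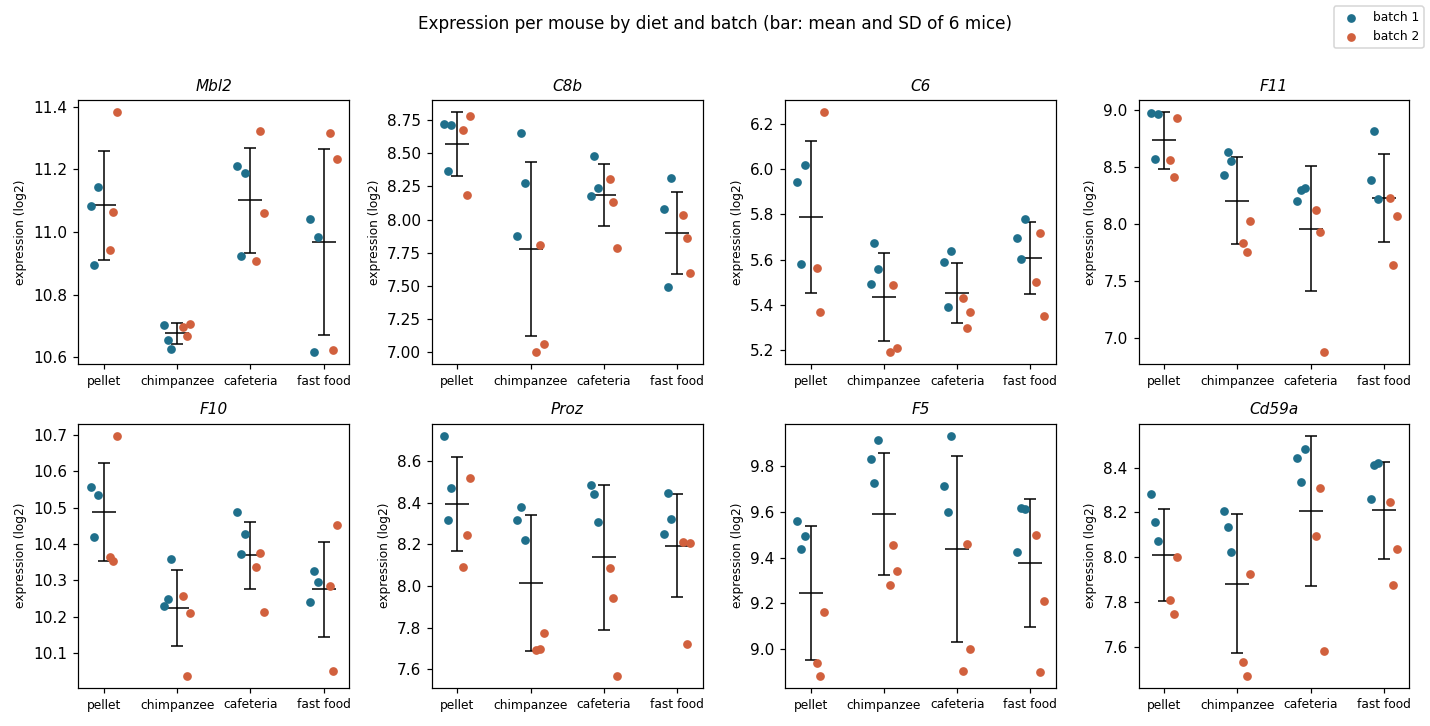
Log2 expression of the 7 called members and Cd59a per mouse, grouped by diet; blue points are batch 1 and orange points batch 2, and bars give the mean and SD of 6 mice. The Mbl2 values on the chimpanzee diet lie between 10.62 and 10.71, and 3 cafeteria mice of batch 2 include the lowest F11 value, 6.88.

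F5, the cofactor of activated F10, was the member that was higher on the chimpanzee diet. It ran from 8.88 to 9.56 (median 9.30) on pellets and from 9.28 to 9.91 (median 9.59) on the chimpanzee diet, and the groups overlapped. Within each batch every chimpanzee mouse lay above every pellet mouse. The difference was 0.34 (SE 0.10, adjusted p = 0.0297), with 0.33 in batch 1 and 0.36 in batch 2, and a second F5 probe set read 0.42 (adjusted p = 0.0248). The call held in 17 of 24 fits that left out 1 mouse and was lost without chimpanzee batch 1 replicate 1 or 3, chimpanzee batch 2 replicate 2, pellet batch 1 replicate 2 or 3, or pellet batch 2 replicate 1 or 2, with adjusted p up to 0.0681, and with the beta-actin measure in the fit (0.37, adjusted p = 0.312). F8, the homologous cofactor of F9, made largely by endothelial cells, lay 0.36 higher on the human diets than on the chimpanzee diet (SE 0.13, adjusted p = 0.167) and 0.25 higher than on pellets (adjusted p = 0.204). F8 ran from 3.67 to 5.10 over all mice, within 2 log2 of the low-value limit of 3.15. Of 10 sinusoidal endothelial markers 0 passed in either comparison, against 1.49% and 4.98% of all genes. The median differences over these markers were 0.08 and −0.05. F13b, the carrier subunit of the fibrin-crosslinking factor, differed by 0.24 between the human and chimpanzee diets and did not pass.

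The fibrinogen chains moved in near lockstep from mouse to mouse. Fga, Fgb and Fgg, which lie side by side in the genome, each had an SD of about 0.16 over the 24 mice, while the SD of the difference between any pair of chains within an array was from 0.05 to 0.07. Their ranges over all mice were 0.61, 0.64 and 0.70 log2. Fast food batch 2 replicate 2 was the lowest fast food mouse for all 3 chains, and also for F2, Plg, Vtn and Kng1. Fibrinogen chains were not paired with unrelated genes of similar signal. A shift common to an array was therefore not separated from one particular to these chains. Between diets the chains differed by at most 0.19 in size: −0.09 to −0.13 for the chimpanzee diet minus pellets, −0.11 to −0.19 for the human diets minus pellets and −0.07 to −0.02 for the human diets minus the chimpanzee diet. None of these differences passed. After cyclic loess all 3 chains passed as lower on the human diets than on pellets, and after quantile scaling Fgb and Fgg did. Plg, the precursor of the fibrin-digesting protease plasmin, differed by at most 0.03 in size between the chimpanzee diet, the human diets and pellets.

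**Figure D3:**
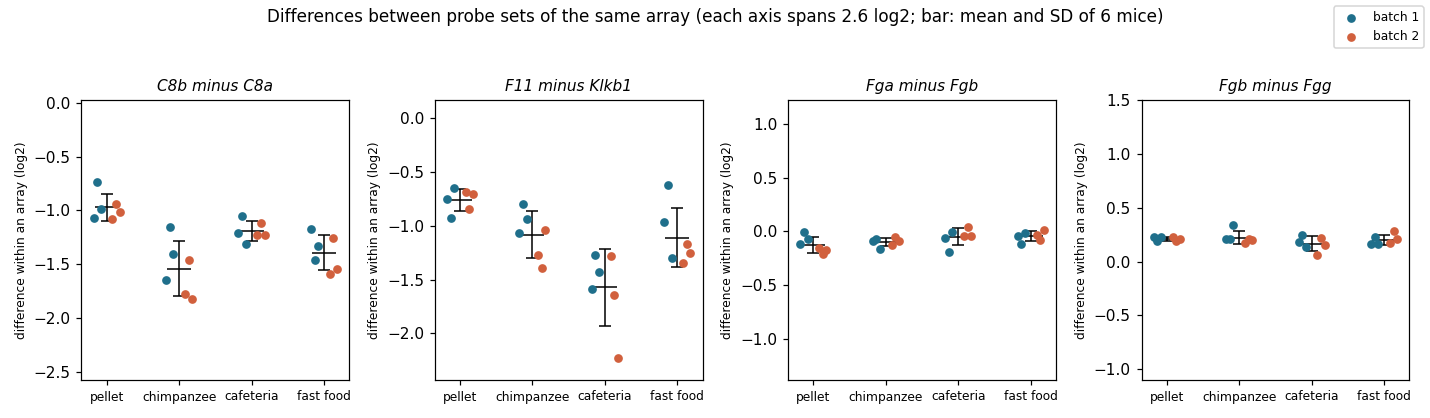
Difference between 2 members within each array, in log2, by diet and batch, for C8b minus C8a, F11 minus Klkb1, Fga minus Fgb and Fgb minus Fgg; bars give the mean and SD of 6 mice. All axes span 2.6 log2. C8b minus C8a lies lower on the chimpanzee diet (−1.54 ± 0.26) than on pellets (−0.97 ± 0.13), while the fibrinogen differences hardly move.

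Between the cafeteria and fast food diets 0 of 35 members passed, against 0.00747% of all genes. The procedure modelled on the study's methods called 0 of these members, against 1.78% of all genes. The smallest p values belonged to C4bp (−0.22), Klkb1 (0.20) and F11 (−0.27), each with an adjusted p of 0.998. The 95% interval lay inside ± 0.5 log2 for 30 of 35 members and inside ± 1 log2 for all 35.

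Other genes of the same pathways were counted for comparison, beside 2.93% of all genes higher and 7.43% lower on the chimpanzee diet than on pellets. Of 21 further coagulation and fibrinolysis genes measured, 5 were lower and 1 higher on the chimpanzee diet than on pellets, with a median difference of −0.09 over the list. Tfpi2, a serine protease inhibitor, had the largest difference (−1.32, adjusted p = 0.000246), followed by Habp2, a protease that can activate F7 (−0.60, adjusted p = 0.00679), Anxa2, a plasminogen-binding protein (−0.41), and Serpinf2, the plasmin inhibitor (−0.32). Of 20 further complement genes, with a median of −0.16, 2 were lower, C1qb (−0.88, adjusted p = 0.038) and Vsig4 (−1.16, adjusted p = 0.049), both of which are macrophage genes. On the human diets against pellets, 1 of the 21 coagulation genes passed, against 4.98% of all genes: Fgl1, a fibrinogen-like secreted protein (−0.40, adjusted p = 0.018).

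Of 17 transcription factors of liver, 5 were higher and 2 lower on the chimpanzee diet than on pellets, against 2.93% and 7.43% of all genes. Cebpb (1.20), Hlf (0.82), Tef (0.60) and Hnf4a (0.59) were the called genes of smallest p, and the median over the list was 0.05. The 2 lower genes were Onecut1 (−1.26, adjusted p = 0.00175) and Nr5a2 (−0.67, adjusted p = 0.024). On the human diets Cebpb (1.00) and Tef (0.48) were higher than on pellets and Nr5a2 was lower (−0.38). Of 27 acute phase genes outside the members, 2 were higher and 4 lower on the human diets than on pellets, against 2.15% and 2.82% of all genes, led by Orm2 (−0.999, adjusted p = 4.56e-05), Apcs (−0.55) and Orm1 (−0.51). Between the chimpanzee diet and pellets, 2 of the 27 were higher, Il1r1 (1.16) and Il6ra (0.64), and 1 was lower, Orm2 (−0.50). The shares of all genes were 2.93% and 7.43%. On the human diets against the chimpanzee diet 0 were higher and 3 lower, against 1.15% and 0.344% of all genes. These were Orm2 (−0.50), Lcn2 (−1.28) and Il1r1 (−0.91).

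The number of members past the threshold moved with the scaling and when a measure of RNA integrity entered the fit. Chimpanzee diet against pellets gave 0 member calls when the beta-actin measure entered the fit, against 1.58% of all genes. The differences of C8b, C6 and F5 were then −0.84, −0.35 and 0.37, with SEs up from 0.19, 0.11 and 0.10 to 0.29, 0.17 and 0.15. Those of Mbl2, F10, Proz and F11 were −0.34, −0.11, −0.08 and −0.21. The measure itself differed between these diets, so its part and that of diet cannot be fully told apart. Chimpanzee diet against pellets gave 0 in batch 1 alone, against 7.92% of all genes, and 0 in batch 2 alone, against 0.187%. With the array's 90th percentile in the fit, 7 members passed, against 15.3% of all genes, and without the 4 arrays of lowest range 5 did, against 10.5%. Those 5 were Mbl2, C8b, Cfi, F5 and F11, so C6, F10 and Proz lost their calls. Without batch in the fit 2 members passed, Mbl2 and C8b, against 3.53% of all genes. Human diets against pellets gave 12 of 35 members (34.3%) after cyclic loess, against 8.94% of all genes, and 8 (22.9%) after quantile scaling, against 8.65%.

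**Figure D4:**
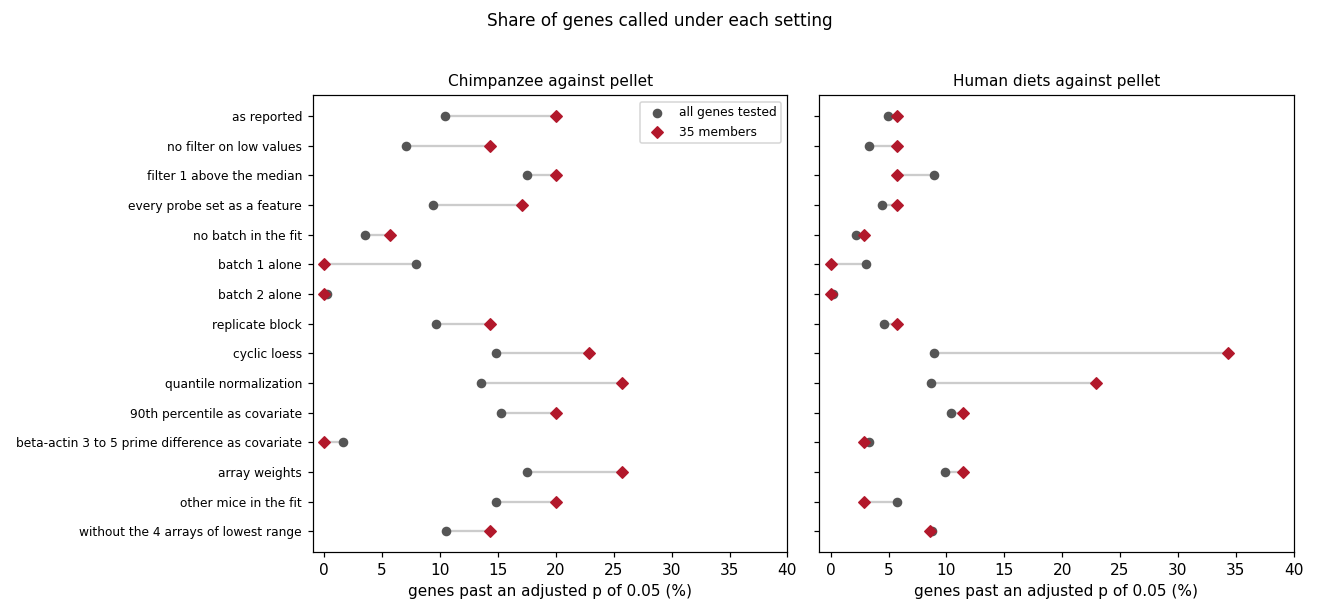
Percent of genes past an adjusted p of 0.05 under each way of fitting, for all genes tested (grey circles) and for the 35 members (red diamonds), in the comparisons of the chimpanzee diet and of the human diets with pellets. For the human diets the members reach 34.3% after cyclic loess and stand at 5.71% as reported.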

How the data were processed

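Liver RNA of 24 mice was labelled and hybridised by the authors, who deposited log2 values for every probe set and mouse, computed, by their methods, with rma, which includes quantile normalization of the arrays. The deposited arrays did not share 1 distribution, however, with 90th percentiles from 5.67 to 6.62. Whether brain arrays entered the same normalization is not given in the sources used here. Deposited values ran from 1.9 to 13.01. The table held 45101 probe sets, of which 64 were controls. The annotation gave 1 symbol for 34945, several for 932 and none for 9160. Probe sets exceeding the overall median (3.15) on 6 or more arrays were kept, which left 25541, and a gene was represented by its kept probe set of highest mean. The values were not rescaled for the main comparisons, and detection p-values were not used.

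Diets were compared with limma 3.58.1 in R 4.3.3 (lmFit, eBayes) with batch as a covariate, over all genes tested, two-sided, with Benjamini-Hochberg adjustment at 0.05. Human diets were compared with chimpanzee or pellet mice in fits of those 18 mice, and other pairs in 1 fit of 24. The scripts were tested on simulated data. Members were given in full when called in any of 5 comparisons or when among the 3 of smallest p where fewer than 3 were called. Members and lists were chosen with earlier results of these data known. The paper states that littermates were spread evenly over the diet groups, but nothing in the labels ties mice to litters. Litter could therefore not enter the fits, which treat the mice as independent, and p-values rest on the spread between mice. Alternatives changed the filter, the probe sets, the batch term, the scaling, the covariates, the weights and the mice. They included a procedure modelled on the study's methods, with an unadjusted p under 0.01. It kept the low-value limit used here in place of detection p-values. It compared pairs of single diets by a contrast in the fit of 24 mice, where the paper used Tukey's test. The number of arrays limits the precision. Promoter sequences came from RefSeq tables of GRCm38.p6, where 28 of 35 measured members matched.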

Additional observations from a re-analysis of the deposited data

Results flagged for a closer look

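Within the groups of 6 mice, 7 of 140 combinations of member and diet held a mouse apart from its group by Dixon's criterion (the gap to the next mouse over the range of the group), and chance marks about 1 in 20. Fast food batch 2 replicate 2 was low for Proz (7.72), F13b (8.97) and Klkb1 (8.81), and it is also 1 of the 4 arrays with the lowest 90th percentile. Cafeteria batch 2 replicate 3, which has the lowest 90th percentile of all arrays, was low for F11 (6.88, with the next at 7.93). Chimpanzee batch 2 replicate 1 was low for C2 (6.27) and chimpanzee batch 2 replicate 3 for C8g (10.72). Fast food batch 1 replicate 3 was high for C2 (7.80, with the next at 7.25). The part of array range in these values was not tested.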

How the results depend on the processing

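The called differences of members changed sign under no alternative fitted with limma. Of those that did not pass, C9 for chimpanzee minus pellet was 0.99 in batch 1 and −0.23 in batch 2, and the median of members for human minus chimpanzee turned from 0.05 to −0.04 after cyclic loess and −0.02 after quantile scaling. Counts of members called are given in the order 4 diets, human against chimpanzee, human against pellet, chimpanzee against pellet, and were 3, 0, 2 and 7 as reported. Shares of all genes follow in the same order, and were 9.0%, 1.49%, 4.98% and 10.4% as reported. Cafeteria against fast food gave 0 throughout, against at most 0.0897% of all genes under limma. Without batch in the fit the counts were 0, 0, 1 and 2, against 2.85%, 0.254%, 2.15% and 3.53%. In batch 1 alone they were 0, 1, 0 and 0, against 5.57%, 0.799%, 3.09% and 7.92%. In batch 2 alone they were 0 in each, against 0.105%, 0.00747%, 0.187% and 0.187%. After cyclic loess they were 15, 2, 12 and 8, against 15.8%, 4.06%, 8.94% and 14.8%. After quantile scaling they were 11, 2, 8 and 9, against 14.3%, 3.48%, 8.65% and 13.5%. With the 90th percentile as covariate they were 6, 1, 4 and 7, against 17.3%, 4.6%, 10.4% and 15.3%. With beta-actin they were 0, 0, 1 and 0, against 3.66%, 0.0374%, 3.29% and 1.58%. With array weights they were 7, 3, 4 and 9, against 20.2%, 9.5%, 9.88% and 17.5%. With the other mice in or out of the fit, human against chimpanzee gave 2, against 3.16% of all genes, and human against pellet 1, against 5.75%. The procedure modelled on the study's methods gave 5, 2, 3 and 9, against 12.6%, 6.43%, 8.14% and 14.3%. The replicate block gave 2, 0, 2 and 5, against 8.06%, 0.994%, 4.58% and 9.68%. Mice of 1 number and batch did not deviate together, with mean correlations of deviations from −0.12 to 0.08, so the numbers were not taken as pairs. Leaving out each mouse in turn gave 1 to 4, 0 to 2, 0 to 3 and 2 to 8 members. The shares of all genes ran from 6.87% to 12.8%, 0.463% to 4.95%, 3.29% to 6.42% and 7.52% to 12.7%. For chimpanzee against pellet the lowest count came without pellet batch 2 replicate 3 and the highest without fast food batch 2 replicate 2. Cyclic loess moved the share of all called genes that were higher on the chimpanzee diet than on pellets from 28.3% to 45.4%, quantile scaling to 44.1% and the 90th percentile to 47%. For human against chimpanzee this share was 77%, and 57.6%, 56% and 58% in the same order. The cause was not tested.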
